A study of Mus musculus with 8 samples.

Results

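The Ugt1a locus on mouse chromosome 1 encodes 9 UDP-glucuronosyltransferases (Ugt1a1, Ugt1a2, Ugt1a5, Ugt1a6a, Ugt1a6b, Ugt1a7c, Ugt1a8, Ugt1a9 and Ugt1a10), and their transcripts were followed here in livers exposed to SLIT2, to acetaminophen (APAP) or to both. The genes were chosen by symbol, through the Ensembl identifiers that GENCODE M21 assigns on GRCm38, and all 9 were present among the 23006 genes of the count table. The livers of wild-type mice gave 8 libraries, 2 for each of 4 treatments. Controls were given only phosphate-buffered saline. The SLIT2 group was injected with 2 µg of SLIT2 per mouse into the peritoneum for 3 days, SLIT2 being a secreted protein that binds ROBO receptors. The APAP group received saline and 400 mg/kg of APAP, a dose that injures the liver. The SLIT2+APAP group received both agents. Livers were collected 24 h after APAP. Strain, sex and age are not given in the labels. The APAP libraries are numbered 3 and 4 and those of the other groups 1 and 2, and whether the 2 libraries of a group stem from different animals is not given, so p-values measure only how far these samples differ, and that spread may be technical.

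UDP-glucuronosyltransferases sit in the membrane of the endoplasmic reticulum and attach glucuronic acid from UDP-glucuronic acid to small lipophilic molecules, which can then leave the body in bile and urine. At the Ugt1a locus, each gene has its own promoter and its own initial exon, which encodes the part of the enzyme that binds the substrate, and this exon is spliced to a set of exons common to all, which encode the part that binds UDP-glucuronic acid and the membrane anchor. In liver the locus is best known for conjugating bilirubin, a task of UGT1A1, and for conjugating phenols, among them APAP itself.

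The joint between each gene's own exon and the common exons is printed because it shows how little sequence outside the own exon can tell the genes apart. Each line gives the last 24 bases of the own exon in lower case and the 24 bases that open exon 2 in capitals, 5′ to 3′, from the GENCODE M21 transcripts. The capitals are the same 24 bases in all 9 genes. Just upstream of the joint, Ugt1a2 cannot be told from Ugt1a5, nor Ugt1a6a from Ugt1a6b.
Ugt1a1: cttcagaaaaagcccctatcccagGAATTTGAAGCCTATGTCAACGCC
Ugt1a2 and Ugt1a5: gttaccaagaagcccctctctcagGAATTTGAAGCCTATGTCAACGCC
Ugt1a6a and Ugt1a6b: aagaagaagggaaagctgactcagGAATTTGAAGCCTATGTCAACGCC
Ugt1a7c: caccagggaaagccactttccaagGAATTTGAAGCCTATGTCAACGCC
Ugt1a8: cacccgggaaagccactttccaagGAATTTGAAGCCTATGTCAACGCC
Ugt1a9: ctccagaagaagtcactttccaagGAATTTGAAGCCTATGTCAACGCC
Ugt1a10: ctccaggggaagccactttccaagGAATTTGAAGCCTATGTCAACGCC

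On GRCm38 the locus covers chr1:88055388-88220002, 164.6 kb on the + strand, as the map of the locus shows. The common part of the main transcripts consists of exon 2 (chr1:88215044-88215175), exon 3 (chr1:88215795-88215882), exon 4 (chr1:88216138-88216357) and exon 5 (chr1:88218127-88218997). These 4 exons hold 1311 bases in most transcripts, 1318 in Ugt1a8 and Ugt1a10 and 2316 in Ugt1a7c, whose last exon runs on to position 88220002. The own exon of Ugt1a1 (ENSMUSG00000089960, chr1:88211959-88212871) lies nearest, 3.1 kb before exon 2, that of Ugt1a8 (ENSMUSG00000089675, chr1:88087813-88088721) lies 127.2 kb before it, and that of Ugt1a10 (ENSMUSG00000090165, chr1:88055411-88056336) lies 159.6 kb before it. Own exons made up between 28.3% (Ugt1a7c) and 42.1% (Ugt1a6a) of the transcript, so exons 2 to 5 made up most of every transcript. In Ugt1a7c, part of that length is the run of its last exon past the end of the others, which is not common sequence. How reads from the common exons were assigned to genes is not given in the sources used here. The level of a single gene therefore depends on that assignment. The sum of the 9 genes does not depend on how common reads were divided among them, provided that each was counted once. Whether such reads were counted once, dropped or counted for several genes is not known, and the sum would depend on that. Counts over own exons alone were not analysed here.

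**Figure D1:**
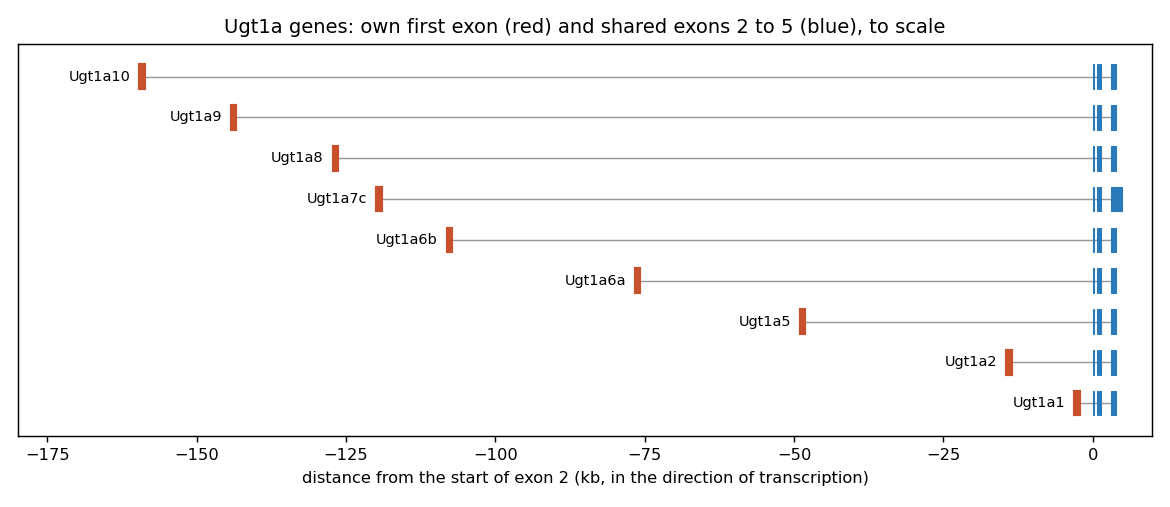
Map of the 9 Ugt1a genes drawn to scale, with the distance from the start of exon 2 in kb on the horizontal axis and 1 line per gene. Each gene has its own exon (red) at a different distance, from 3.1 kb (Ugt1a1) to 159.6 kb (Ugt1a10) before exon 2, and all end in the same exons 2 to 5 (blue).

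The own exons fall into families. Over their last 860 bases, Ugt1a6a and Ugt1a6b were 97.0% identical and shared 47.5% of their 50-base words. Such shared words cannot tell these near-identical copies apart, and how well their counts were separated was not tested. Ugt1a9 and Ugt1a10 were 90.8% identical, and Ugt1a7c and Ugt1a8 83.9%. Ugt1a8 was 82.8% identical to Ugt1a10 and shared 0.5% of 50-base words with it. Ugt1a1 was at most 59.3% identical to any other member and shared 0% of 50-base words with each of them. An antisense gene, Gm20528, overlaps exons of the locus and was not in the count table. The strand setting of the counting is not given, and whether its reads fell on the members was not tested. A further 9 genes lie within the locus without overlapping exons of the members, 8 of them pseudogenes and the other Dnajb3, a cochaperone gene, and none held more than 17 counts in any library.

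The sequence before the RefSeq start of 3 genes is printed because Ugt1a8 was higher, and Ugt1a1 and Ugt1a10 lower, in the libraries with SLIT2. The 150 bases upstream of the RefSeq start are given 5′ to 3′ (GRCm38.p6), with matches to the motifs searched in capitals, of which Ugt1a1 and Ugt1a10 hold none in this stretch. RefSeq promoters were found for 8 of the 9 genes, all but Ugt1a6b. RefSeq starts do not all match the GENCODE own exons. Those of Ugt1a8 and Ugt1a2 lie inside the own exon, so the last bases of the Ugt1a8 stretch belong to that exon. The 150 bases before the Ugt1a6a start end at chr1:88134808, well before the own exon used here, which begins at chr1:88138378.
Ugt1a1 (chr1:88211809-88211958, + strand): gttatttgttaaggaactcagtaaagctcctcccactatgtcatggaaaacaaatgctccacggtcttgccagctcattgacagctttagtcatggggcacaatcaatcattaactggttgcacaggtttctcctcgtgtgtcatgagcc
Ugt1a8 (chr1:88087678-88087827, + strand): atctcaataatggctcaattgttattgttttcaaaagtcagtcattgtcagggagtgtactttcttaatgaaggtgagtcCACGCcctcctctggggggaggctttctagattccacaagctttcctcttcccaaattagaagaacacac
Ugt1a10 (chr1:88055261-88055410, + strand): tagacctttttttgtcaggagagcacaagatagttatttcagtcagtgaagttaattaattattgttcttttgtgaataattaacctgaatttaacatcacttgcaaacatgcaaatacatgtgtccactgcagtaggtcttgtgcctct

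The motifs were searched on both strands in the 300 bases around the start. GCGTG, the core of the site bound by the aryl hydrocarbon receptor, was found in Ugt1a8 and Ugt1a5 and in 32.39% of all 32851 promoters of the table. AGGTCA, the element bound by many nuclear receptors, was found in Ugt1a9 and Ugt1a7c and in 16.26% of all promoters. TGACNNNGC, the antioxidant response core, was in 0 of the 8 and in 12.39% of all promoters and TATAAA was in 0 of the 8 and in 13.62%. No 2 matches overlapped. A match describes letters, not a bound site.

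Total counts were 60.8 to 100.5 M per library (1 M is 1000000 counts), of which 12007 to 60523 fell on the Ugt1a genes. The SLIT2 libraries stood apart: the 13 mitochondrially encoded genes took 60.2 and 69.0% of their counts, against 16.0 to 17.3% in control, 13.4 to 14.9% in APAP and 25.1 to 30.3% in SLIT2+APAP. The table held 7 of 8 hepatocyte markers listed (Alb and other plasma proteins), and their summed level, in counts per 1000000 counts (CPM) on TMM-scaled library sizes, was 57555 to 77878 in control, 8166 to 15315 in SLIT2, 90548 to 113799.5 in APAP and 71208 to 74308 in SLIT2+APAP. Pericentral hepatocyte markers (7 of 8 in the table) summed to 4718 to 4791, 538 to 853, 4359 to 5315 and 1433 to 2784 CPM in the same order, and periportal markers (8 of 8) to 6760.2 to 7075, 3819 to 4927, 6554 to 6764 and 4332 to 5376 CPM. Intestinal epithelial markers (6 of 6) summed to 136 to 188 CPM in control, 4.62 to 8.07 in SLIT2, 45.9 to 76.6 in APAP and 70.4 to 73.8 in SLIT2+APAP, nearly all of it Fabp2. The other 5 (Vil1, Lct, Sis, Cdx2 and Muc2) were each at or below 0.59 CPM in every library. Lct, Sis and Cdx2 were at 0 in both control libraries and at 0.0181 to 0.59 CPM in the SLIT2 libraries. Lct (0.15 CPM) and Cdx2 (0.0748 CPM) were also above 0 in APAP 3, and Muc2 was at 0.133 and 0 CPM in SLIT2. Levels this low do not order the groups. Kidney tubule markers (3 of 6 in the table) stayed at or below 0.163 CPM in all 8 libraries. Skeletal muscle markers (6 of 6) summed to 85.5 and 783 CPM in the control libraries and to at most 1.4 CPM in the others. Cholangiocyte, Kupffer cell and macrophage, neutrophil and endothelial markers (6 of 6 each) summed to between 1.93 and 97.1 CPM in each library. Neutrophil markers were at 1.93 to 2.98 CPM in control and 3.38 to 4.82 in SLIT2+APAP, but 6.96 to 20.6 in the other groups. Cholangiocyte markers were at 57.0 to 66.4 CPM in APAP and 23.0 to 34.9 in the other groups. Kupffer cell and macrophage markers were at 26.9 to 29.6 CPM in SLIT2 and at least 39.8 in every other library. Endothelial markers were at 38.7 to 49.1 CPM in SLIT2, below control (55.1 to 60.5) and inside the range of APAP (37.5 to 97.1). In whole liver, fewer cells of a type and less RNA per cell cannot be told apart.

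In control liver the bilirubin enzyme gene Ugt1a1 was the most abundant member per length of transcript, at 75.7 ± 5.44 CPM per kb (SD, n = 2). Ugt1a6b (25.1 ± 2.77), Ugt1a8 (21.8 ± 6.1) and Ugt1a9 (21.5 ± 7.03 CPM per kb) followed with overlapping libraries. Ugt1a6a was at 14.4 ± 2.63 CPM per kb, below these. Ugt1a5 (4.07 ± 2.98) and Ugt1a10 (3.29 ± 0.706 CPM per kb) overlapped, as did Ugt1a7c (0.152 ± 0.00371) and Ugt1a2 (0.117 ± 0.165 CPM per kb). In the APAP group the order began in the same way, with Ugt1a1 at 151 ± 21 and Ugt1a6b at 33.5 ± 2.51 CPM per kb, but Ugt1a8 was sixth, at 4.74 ± 5.83 CPM per kb, overlapping with Ugt1a5 before it and Ugt1a10 after it. In both groups given SLIT2, Ugt1a8 was above every other member: it was at 60.8 ± 2.42 CPM per kb in SLIT2 and 88.8 ± 3.9 CPM per kb in SLIT2+APAP, and Ugt1a1 was next with 16.8 ± 6.55 and 28.9 ± 13.8 CPM per kb. Ugt1a10 was last in both, at 0.

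Ugt1a1 encodes the enzyme that conjugates bilirubin. Its level was 159.8 and 177 CPM in the control libraries, 27.1 and 47.7 in SLIT2, 302 and 368 in APAP, and 86.1 and 42.6 in SLIT2+APAP. The 4 libraries with SLIT2 were all below the 4 without it, and the APAP libraries were above all others.

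Ugt1a6a and Ugt1a6b encode enzymes for small planar phenols, and Ugt1a9 encodes an enzyme for bulkier phenols. Ugt1a6a was at 28.4 and 36.9 CPM in control, 11.3 and 10.1 in SLIT2, 49.6 and 59.6 in APAP, and 13.1 and 8.96 in SLIT2+APAP. Ugt1a6b was at 52.1 and 60.9 CPM in control, 15.1 and 5.27 in SLIT2, 71.4 and 79.3 in APAP, and 19.2 and 8.24 in SLIT2+APAP. Both were lower in every library with SLIT2 than in any without it. Ugt1a9 was at 36.1 and 57.9 CPM in control, 8.48 and 1.65 in SLIT2, 37.2 and 51.2 in APAP, and 7.96 and 6.39 in SLIT2+APAP. Its APAP libraries lay inside the range of control, and its 4 libraries with SLIT2 lay below both groups.

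Ugt1a8 went the other way. It was at 38.8 and 58.0 CPM in control, 132 and 139 in SLIT2, 19.7 and 1.38 in APAP, and 204 and 192 in SLIT2+APAP. The 4 groups did not overlap, and the SLIT2+APAP libraries were highest and the APAP libraries lowest. The 2 APAP libraries differed widely from each other. As counts they held 1583 and 142, against 16300 and 18737 in SLIT2+APAP.

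Ugt1a10 was counted only in libraries without SLIT2. It was at 8.5 and 6.26 CPM in control (713 and 595 counts) and 4.88 and 11.5 CPM in APAP (391 and 1186 counts). It had 0 counts in both SLIT2 and both SLIT2+APAP libraries, which allows up to 3 counts over the 2 libraries of each group. Among the 7960 genes with at least 300 counts in each control and APAP library, a minimum chosen after these values were seen, 2 were at 0 in all 4 libraries with SLIT2, Ugt1a10 and Gm13835.

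Ugt1a5 was at 4.33 and 13.6 CPM in control, 5.28 and 8.98 in SLIT2, 49.0 and 16.3 in APAP, and 6.17 and 2.3 in SLIT2+APAP. The APAP libraries were above all others and the other groups overlapped. Ugt1a2 ranged from 0 to 3.39 CPM, with 0 counts in 3 libraries from 3 groups. Ugt1a7c ranged from 0.0102 CPM, a single count in SLIT2+APAP 2, to 1.66 CPM. The levels of these 2 genes were too low and too uneven between libraries of a group to order the groups, as the plot of each gene by library shows.

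**Figure D2:**
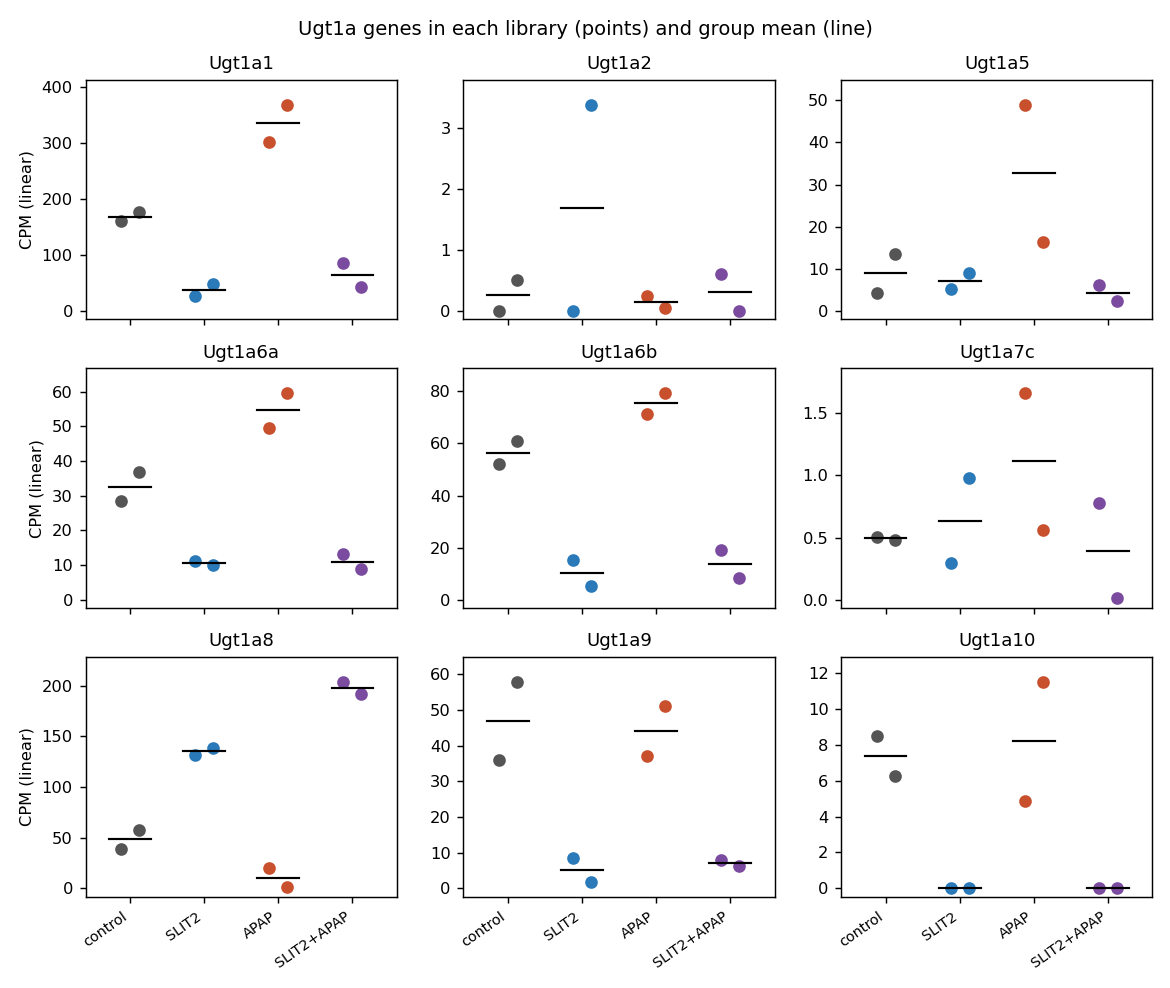
Level of each Ugt1a gene in each library in CPM on a linear axis of its own, with 1 point per library and a line at the group mean. Ugt1a1, Ugt1a6a, Ugt1a6b, Ugt1a9 and Ugt1a10 are lower in the 4 libraries with SLIT2 than in the 4 without it, whereas Ugt1a8 is at 132 to 204 CPM with SLIT2 and 1.38 to 58.0 CPM without it.

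The sum of the 9 genes was 329 and 411 CPM in control, 199 and 217 in SLIT2, 536 and 588 in APAP, and 338 and 260.3 in SLIT2+APAP. It was highest in APAP and lowest in SLIT2, and SLIT2+APAP overlapped control. The APAP mean was 1.52 times that of control, the SLIT2 mean 0.563 times that of control, and the SLIT2+APAP mean 0.532 times that of APAP and 0.808 times that of control. Scaled by library totals alone, the last of these ratios was 0.988. Because Ugt1a8 was high where the others were low, the 8 other genes differed more than the sum: without Ugt1a8, a set chosen after the values were seen, the sum was 322 ± 45.0 CPM in control, 72.8 ± 7.5 in SLIT2, 551 ± 50 in APAP and 101 ± 46.2 in SLIT2+APAP (SD, n = 2).

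The makeup of the locus differed between groups. Ugt1a8 held 11.8 and 14.1% of the locus counts in control, 66.1 and 64.1% in SLIT2, 3.69 and 0.235% in APAP, and 60.4 and 73.7% in SLIT2+APAP. The 95% exact binomial intervals ran from 0.198 to 0.276% for the lowest of these (APAP 4) and from 73.1 to 74.2% for the highest (SLIT2+APAP 2), and reflect the error of counting alone, because reads counted without molecular identifiers can be copies of 1 molecule. Ugt1a1 held 45.8 ± 3.98% of the locus counts in control, 17.8 ± 5.9% in SLIT2, 59.5 ± 4.39% in APAP and 20.9 ± 6.44% in SLIT2+APAP. Among the 8 other genes, however, the part held by Ugt1a1 was 50 to 55.1% in control, 40.2 to 61.1% in SLIT2, 58.5 to 62.7% in APAP and 62.2 to 64.3% in SLIT2+APAP. SLIT2 overlapped control and APAP by this measure. Ugt1a6a held 9.81 to 10.4%, 13 to 16.7%, 9.61 to 10.2% and 9.79 to 13.1% of the 8 in the same order.

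**Figure D3:**
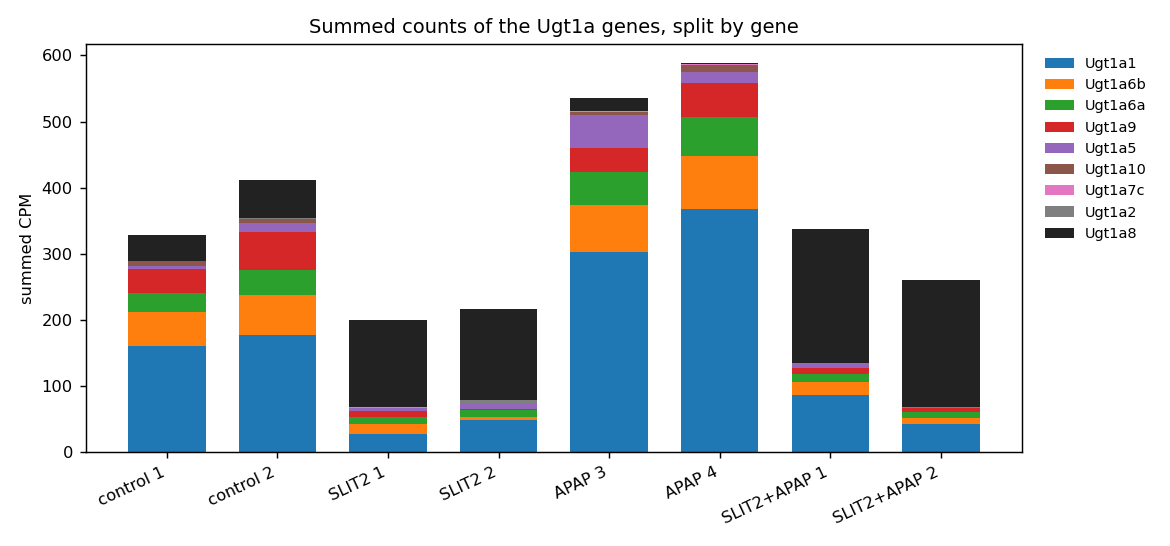
Summed level of the 9 Ugt1a genes in each of the 8 libraries in CPM, as bars from 0 split by gene. Ugt1a8 makes up 60.4 to 73.7% of the counts in the 4 libraries with SLIT2 and 0.235 to 14.1% in the 4 without it, and the whole bar is highest in the APAP libraries, at 536 and 588 CPM.

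In what follows, differences were tested by edgeR's quasi-likelihood test fitted to all 8 libraries and a gene was called where its p, adjusted by Benjamini-Hochberg over the 16876 genes tested, was under 0.05. All 9 members passed the count filter. The members were proposed with results of these data known, so their counts are a description, set beside the share of all genes called. How many of all genes lacked overlap between groups was not counted, so lack of overlap only describes single genes. The 4 comparisons share libraries, with control in 3 of them and APAP and SLIT2+APAP in 2 each, and they are not independent of each other.

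The effect of the toxic dose by itself was read from APAP against control. Ugt1a1 stood 1.99-fold, Ugt1a5 3.65-fold and Ugt1a6a 1.67-fold above control by group means, and Ugt1a8 stood 4.59-fold below it, each without overlap between the groups. None of these differences was called. The APAP libraries overlapped control for Ugt1a9, with means of 44.2 ± 9.89 against 47.0 ± 15.4 CPM (SD, n = 2), and for Ugt1a10, with 8.2 ± 4.7 against 7.38 ± 1.59 CPM.

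By edgeR 0 of the 9 genes were called, against 0.788% of all genes tested (133 genes). Unadjusted p was under 0.05 for 4 members (Ugt1a1, Ugt1a5, Ugt1a6a and Ugt1a8) and for 4149 genes overall. The log2 fold change was 0.99 ± 0.38 (SE) for Ugt1a1 (edgeR adjusted p = 0.1652), 1.86 ± 0.72 for Ugt1a5 (edgeR adjusted p = 0.1673), 0.74 ± 0.25 for Ugt1a6a (edgeR adjusted p = 0.1335) and -2.2 ± 0.91 for Ugt1a8 (edgeR adjusted p = 0.1883). DESeq2 called 1 member, Ugt1a5 (log2 fold change 1.82, adjusted p = 0.0475), among 1836 genes in all. Ugt1a8 was called as lower when either APAP library was left out, with a log2 fold change of -5.13 without APAP 3 (edgeR adjusted p = 0.002076) and -1.31 without APAP 4 (edgeR adjusted p = 0.01128). These fits called 553 and 5181 genes in all, and the spread of the single APAP library that remained was taken from the other groups, as for every group left with 1 library below.

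SLIT2 against control asks what SLIT2 did in mice without APAP. The bilirubin enzyme gene Ugt1a1 was 4.5-fold lower by group means, the phenol enzyme genes Ugt1a6a and Ugt1a6b 3.05-fold and 5.55-fold lower, and Ugt1a9 9.29-fold lower. Ugt1a10 had 1308 counts over the 2 control libraries, 7.31 CPM when pooled, and 0 in SLIT2, at least 299.7-fold lower when 3 counts over the 2 libraries (0.0244 CPM) are taken as the floor. All 5 passed the test. Ugt1a8 was 2.8-fold higher by group means, with no overlap, and was not called.

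The 5 called genes made up 55.6% of the members, and 54.9% of all genes tested were called (27.6% as lower), so the share of members called was near the background. The median log2 fold change was -1.61 over the members and 0 over all genes tested. The log2 fold change was -2.17 ± 0.4 (SE) for Ugt1a1 (edgeR adjusted p = 0.002452), -1.61 ± 0.26 for Ugt1a6a (edgeR adjusted p = 0.001347), -2.47 ± 0.54 for Ugt1a6b (edgeR adjusted p = 0.005543) and -3.21 ± 0.66 for Ugt1a9 (edgeR adjusted p = 0.004452). The edgeR adjusted p of Ugt1a10 was 0.0004096. These 5 kept their call with any 1 of the 8 libraries left out. Ugt1a8 had a log2 fold change of 1.48 ± 0.89 (edgeR adjusted p = 0.1891), and it was called as higher with only the 4 control and SLIT2 libraries in the fit (edgeR adjusted p = 0.002064), without APAP 3 (edgeR adjusted p = 0.0005731) or without APAP 4 (edgeR adjusted p = 0.0006207), fits that called 10571, 11672 and 11648 genes in all. The high mitochondrial share and the low hepatocyte markers given above belong to the same SLIT2 libraries, and their part in these differences was not tested. With the mitochondrially encoded genes left out of the fit, 5 members were called.

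The effect of SLIT2 under the toxic dose was read from SLIT2+APAP against APAP. Ugt1a1 fell 5.2-fold by group means, Ugt1a6a 4.94-fold, Ugt1a6b 5.5-fold, Ugt1a9 6.16-fold and Ugt1a5 7.72-fold. Ugt1a10 had 1577 counts over the 2 APAP libraries, 8.61 CPM when pooled, and 0 in SLIT2+APAP, at least 509.9-fold lower against the same floor of 3 counts (0.0169 CPM). Ugt1a8 rose 18.7-fold, from 10.6 ± 13 to 198 ± 8.69 CPM (SD, n = 2). None of these genes overlapped between the groups, whereas Ugt1a2 and Ugt1a7c did.

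The 7 called members, 6 lower and 1 higher, made up 77.8% of the 9, against 13.9% of all genes tested (7.63% lower and 6.28% higher). The median log2 fold change was -2.38 over the members and -0.06 over all genes. The log2 fold change was -2.38 ± 0.4 (SE) for Ugt1a1 (edgeR adjusted p = 0.01277), -2.31 ± 0.26 for Ugt1a6a (edgeR adjusted p = 0.005445), -2.46 ± 0.53 for Ugt1a6b (edgeR adjusted p = 0.02505), -2.62 ± 0.64 for Ugt1a9 (edgeR adjusted p = 0.03538) and -2.95 ± 0.76 for Ugt1a5 (edgeR adjusted p = 0.04008). For Ugt1a8 it was 4.23 ± 0.99 (edgeR adjusted p = 0.03108), and the edgeR adjusted p of Ugt1a10 was 0.005625. Fewer members were called with any library left out: 5 without SLIT2 1, SLIT2 2 or APAP 4, 4 without APAP 3, 3 without control 1, control 2 or SLIT2+APAP 1, and 0 without SLIT2+APAP 2. Over all genes these fits called 1608, 1517 and 6134, then 3188, then 972, 977 and 167, and then 21, in the same order, against 2348 with all 8 libraries. With only the 4 libraries compared in the fit, 0 members and 1 gene in all were called, and without both SLIT2 libraries 5 members and 1667 genes. Summed pericentral markers were also lower in SLIT2+APAP than in APAP, at 1433 to 2784 against 4359 to 5315 CPM. So were periportal markers, at 4332 to 5376 against 6554 to 6764 CPM, and hepatocyte markers, at 71208 to 74308 against 90548 to 113799.5 CPM. Single pericentral markers went both ways. The log2 fold change was -1.47 for Cyp2e1, -0.58 for Glul and -0.56 for Axin2. It was 2.55 for Lgr5, 2.37 for Slc1a2, 0.34 for Oat and 0.04 for Lect2. The part of these markers was not tested.

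SLIT2+APAP against control sets the mice given both agents beside those given saline alone. Ugt1a6a was 2.96-fold lower by group means and Ugt1a10, from pooled counts, at least 433-fold lower, and both passed the test. Ugt1a1 was 2.61-fold, Ugt1a6b 4.12-fold and Ugt1a9 6.55-fold below control and Ugt1a8 4.08-fold above it, each without overlap, and these were not called.

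The 2 called genes made up 22.2% of the members, against 2.14% of all genes tested (1.45% as lower). The log2 fold change was -1.57 ± 0.26 (SE) for Ugt1a6a (edgeR adjusted p = 0.03415), and the edgeR adjusted p of Ugt1a10 was 0.02356. For Ugt1a1 it was -1.39 ± 0.39 (edgeR adjusted p = 0.09901), for Ugt1a9 -2.71 ± 0.65 (edgeR adjusted p = 0.07014) and for Ugt1a8 2.03 ± 0.9 (edgeR adjusted p = 0.2572). The median log2 fold change was -1.39 over the members and 0.04 over all genes. No member was called without control 1, SLIT2 1, SLIT2 2, SLIT2+APAP 1 or SLIT2+APAP 2, 1 was called without control 2, and 3 were called without APAP 3 or APAP 4. Over all genes these fits called 19, 3, 3, 4 and 2, then 150, and then 2558 and 2456, in the same order, against 361 with all 8 libraries, so calls were lost and gained across all genes and not among the members alone. Ugt1a8 was called as higher with only the 4 libraries compared (edgeR adjusted p = 0.001997), without APAP 3 (edgeR adjusted p = 0.004652) and without APAP 4 (edgeR adjusted p = 0.005033), and the first of these fits called 4246 genes in all.

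**Figure D4:**
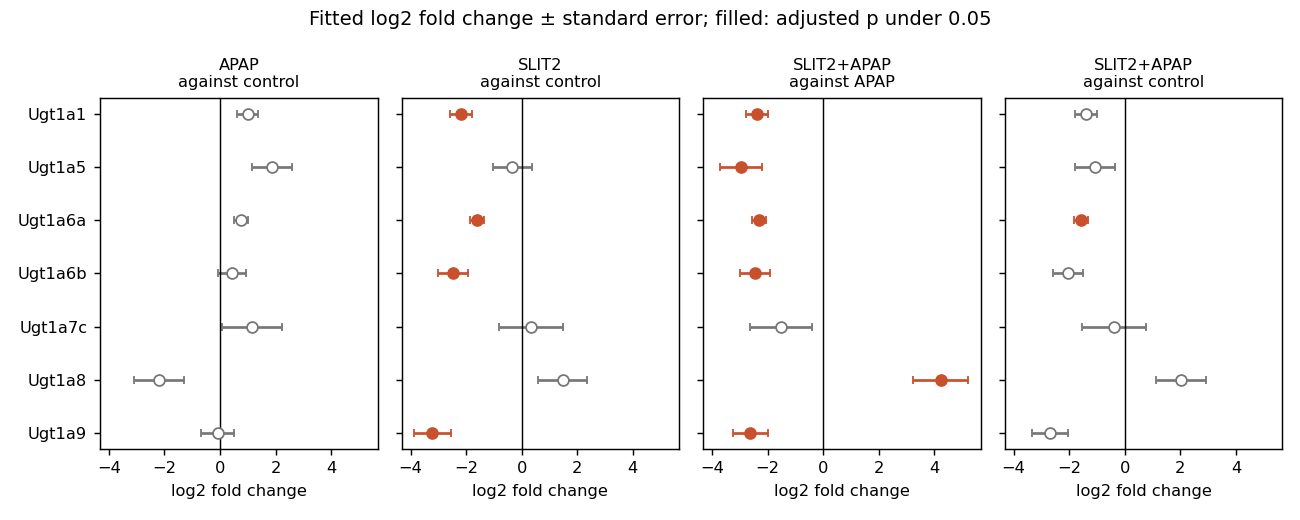
Fitted log2 fold change of each Ugt1a gene except Ugt1a2 and Ugt1a10 in the 4 comparisons on the horizontal axis. Bars give 1 standard error, and points are filled where the edgeR adjusted p was under 0.05. Ugt1a8 lies at 4.23 in SLIT2+APAP against APAP, where 6 other members are called as lower, among them Ugt1a10, which is not drawn.

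The change with SLIT2 in mice given APAP was compared with that in mice without APAP in the same fit, a comparison added after the data were seen. It could be estimated for 8 of the 9 genes, since Ugt1a10 was at 0 in both groups with SLIT2. None of the 8 was called, against 28.8% of all genes. For Ugt1a1 the log2 difference between the changes was -0.21 ± 0.54 (SE, edgeR adjusted p = 0.7922), and for Ugt1a8 it was 2.75 ± 1.25 (edgeR adjusted p = 0.1311). The largest negative value was that of Ugt1a5, -2.62 ± 1.02 (edgeR adjusted p = 0.08711). A value that misses the threshold does not show that the changes were alike.

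Glucuronidation also needs UDP-glucuronic acid, and 5 genes of its supply were followed. Slc35d1, which carries UDP-glucuronic acid into the endoplasmic reticulum, rose with SLIT2, from 95.9 ± 16.1 CPM in control to 154 ± 24.9 CPM in SLIT2 (log2 fold change 0.68 ± 0.22, edgeR adjusted p = 0.03155). It also rose from 91.8 ± 4.56 CPM in APAP to 169 ± 7.42 CPM in SLIT2+APAP (0.88 ± 0.22, edgeR adjusted p = 0.03959). Pgm1 and Ugp2, which make the precursor UDP-glucose, fell in SLIT2 against control, Ugp2 from 287 ± 21.7 to 56.0 ± 23.7 CPM (SD, n = 2), and did not pass in SLIT2+APAP against APAP, where Ugp2 was at 214 ± 13.7 and 246 ± 15.6 CPM. Ugdh, which oxidises UDP-glucose to UDP-glucuronic acid, did not pass in any of the 4 comparisons. In APAP against control and in SLIT2+APAP against control 0 of the 5 passed, where 0.788% and 2.14% of all genes were called. In SLIT2 against control 54.9% of all genes were called, and in SLIT2+APAP against APAP 13.9%.

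Of 5 genes that remove or export glucuronides, 3 fell in SLIT2+APAP against APAP and 0 rose, where 13.9% of all genes were called and 7.63% as lower. Abcc3, an export pump of the sinusoidal side, was at 35.6 ± 14.8 CPM in APAP and fell to 4.6 ± 1.61 CPM with a log2 fold change of -2.95 ± 0.38 (edgeR adjusted p = 0.006468). Abcc2, the pump of the bile canaliculus, fell from 163 ± 46.9 to 57.1 ± 2.65 CPM, and Gusb, the lysosomal enzyme that cleaves glucuronides, from 14.4 ± 0.694 to 5.97 ± 0.633 CPM. In control, Abcc3 was at 12.6 ± 2.62, Abcc2 at 56.8 ± 1.41 and Gusb at 10.3 ± 0.55 CPM. The median log2 fold change of the 5 in SLIT2+APAP against APAP was -1.27, against -0.06 over all genes. In APAP against control it was 1.49, against 0.05 over all genes. In SLIT2 against control, with 54.9% of all genes called, Abcc3 and Abcg2 fell. Against control, 0 of the 5 passed in APAP and in SLIT2+APAP, where 0.788% and 2.14% of all genes were called.

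Among 7 genes of bilirubin formation and uptake, Hmox1, the inducible haem oxygenase, fell from a mean of 284 to 2.66 CPM in SLIT2+APAP against APAP (edgeR adjusted p = 0.02979). Its APAP libraries were far apart, at 557 CPM in APAP 3 and 11.0 CPM in APAP 4, and its control level was 3.82 ± 1.08 CPM. Slco1a1, an uptake transporter, fell in APAP against control (log2 fold change -1.4 ± 0.24, edgeR adjusted p = 0.0497) and in SLIT2+APAP against control (-1.72 ± 0.24, edgeR adjusted p = 0.02836), from 296 ± 42.7 CPM in control to 112 ± 5.16 and 90.0 ± 5.24 CPM (SD, n = 2). In SLIT2 against control, with 54.9% of all genes called, 4 fell (Hmox2, Blvra, Blvrb and Slco1a1) and Slco1a4, another uptake transporter, rose. In APAP against control, SLIT2+APAP against APAP and SLIT2+APAP against control, 1 of the 7 passed in each. The shares of all genes called there were 0.788%, 13.9% and 2.14%, in the same order.

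Of 11 regulators of Ugt1a promoters, 0 passed in APAP against control, where 0.788% of all genes were called. Rxra, the common partner of nuclear receptors, fell from 353 ± 45.2 CPM in APAP to 147 ± 3.54 CPM in SLIT2+APAP (log2 fold change -1.27 ± 0.24, edgeR adjusted p = 0.01629). It also went down from 183 ± 3.48 CPM in control to 80.7 ± 18.4 CPM in SLIT2 (-1.18 ± 0.24, edgeR adjusted p = 0.003836). Nr1h4 and Nr3c1, the bile acid and glucocorticoid receptors, rose in SLIT2+APAP against APAP, and Nr1i2 and Ppara, the pregnane X receptor and the fatty acid sensor, rose in SLIT2 against control. The other members of the list did not pass in these comparisons. Of all genes, 13.9% were called in SLIT2+APAP against APAP and 54.9% in SLIT2 against control. In SLIT2+APAP against control 0 of the 11 passed, where 2.14% of all genes were called.

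Of 10 genes outside the locus that the same regulators are known to drive, 6 fell in SLIT2 against control. They were Cyp3a11, Cyp1a2, Nqo1, Cyp4a10, Cyp4a14 and Acot1, and 54.9% of all genes were called there, 27.6% as lower. In each of the other 3 comparisons 0 passed. The shares of all genes called were 0.788% in APAP against control, 13.9% in SLIT2+APAP against APAP and 2.14% in SLIT2+APAP against control. The xenobiotic oxidase Cyp3a11 was at 2338 ± 28.4 CPM in control, 131 ± 88.0 in SLIT2, 913 ± 453 in APAP and 603 ± 108 in SLIT2+APAP (SD, n = 2).

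Other UDP-glycosyltransferase genes, of the Ugt2 and Ugt3 families, were set beside the locus. Ugt8a was in the table but did not pass the count filter. Of 11 tested, 9 fell in SLIT2 against control (median log2 fold change -2.5), where 54.9% of all genes were called, 27.6% as lower, and 5 of 9 Ugt1a genes. In SLIT2+APAP against APAP 0 of these 11 passed, with a median of 0.05, where 13.9% of all genes and 7 of 9 Ugt1a genes were called. Ugt2b5, one of the more abundant, was at 583 ± 248 CPM in APAP and 605 ± 10.6 CPM in SLIT2+APAP (SD, n = 2). In SLIT2+APAP against control Ugt2b1 fell from 504 ± 79.6 to 88.8 ± 21.6 CPM, a log2 fold change of -2.5 ± 0.39 (edgeR adjusted p = 0.03128), and Ugt2b38 fell as well. The difference between these genes and the Ugt1a genes was not itself tested.

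**Figure D5:**
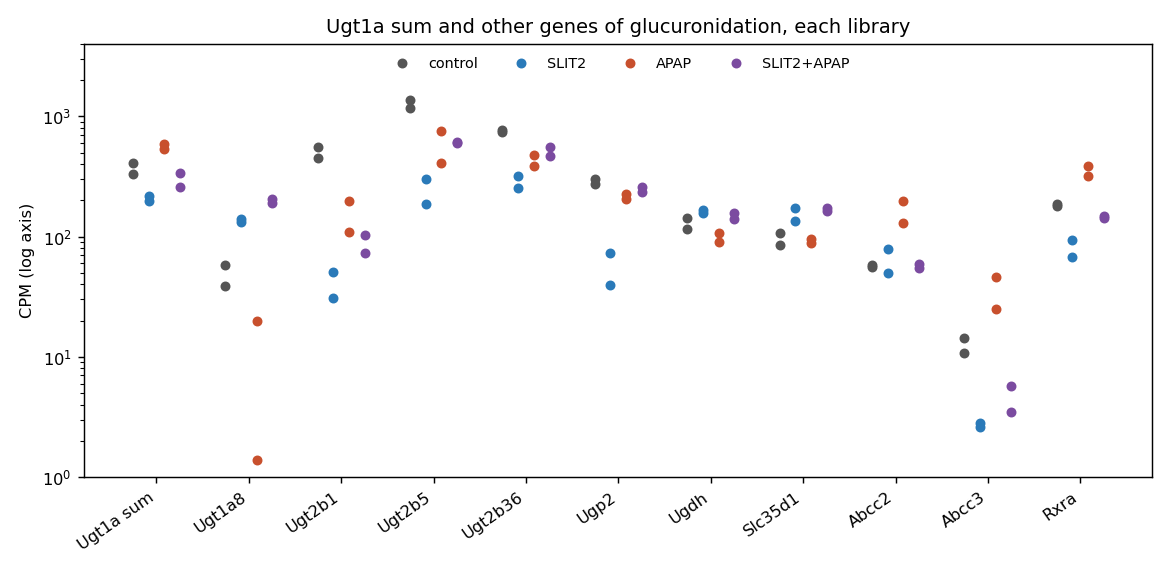
Level of the summed Ugt1a genes and of other genes of glucuronidation in each of the 8 libraries, in CPM on a log axis, with 1 point per library coloured by group. Rxra is at 321 and 385 CPM in the APAP libraries and 144 and 149 CPM in SLIT2+APAP, and Slc35d1 is at 88.6 and 95.1 CPM in APAP and 163 and 174 CPM in SLIT2+APAP.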

How the data were processed

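Liver RNA of 8 mouse libraries was sequenced, with libraries prepared by a directional kit per the labels' protocols. The authors deposited whole-number counts per Ensembl gene, 1 column per library, and all were used. STAR 2.5.4, Cufflinks and Cuffdiff 2.2.1 are named with build mm10 per the submitters' processing notes, without their roles. Not given in the sources used here: the counting step, annotation, strand setting and treatment of reads shared by several genes. Of 93 deposited counts of at least 1000000, 72 end in 0, so large counts appear rounded. GENCODE M21 gave symbols for 22329 of 23006 identifiers (97.1%) and the exon structure on GRCm38, the assembly that mm10 names. RefSeq gave promoters.

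Groups came from the labels. In R 4.3.3, edgeR 4.0.16 was applied with filterByExpr over the 4 groups (16876 genes kept), TMM and a robust quasi-likelihood fit (legacy = FALSE) of 1 mean per group. CPM use TMM-scaled library sizes, and the sum over the locus was given no p-value. Where a group had 0 counts, folds are lower bounds against an assumed floor of 3 counts over the group. They use the pooled counts of the other group and include neither the spread between its libraries nor the unknown assignment of common reads. Total counts were 60.8 to 100.5 M per library (1 M is 1000000), and intervals are exact binomial at 95%. Alternatives were DESeq2 1.42.0 and its size factors, library totals, no count filter, no mitochondrially encoded genes, no SLIT2 libraries, only the 4 libraries compared, a replicate block, and each library left out. The sum without Ugt1a8 and the interaction were added after the data were seen. The tests were tested on simulated data in which few genes changed, unlike in SLIT2 against control, and no result here rests on the outcome.

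The members and all lists of genes and markers were chosen with earlier results of these data known. Named were all 9 Ugt1a genes, and of each pathway list the called members (where more than 5, the 5 with the smallest p) and otherwise the most abundant, with members that make up a count named too and Ugdh named for its role after its values were seen. The 5 genes whose log2(CPM + 0.5) was most like that of the locus sum are in the closing part. The list of regulators had 1 more member, which is not reported here. Figures were drawn with matplotlib 3.10.9.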

Additional observations from a re-analysis of the deposited data

How the results depend on the processing

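The number of Ugt1a genes called changed most in the 2 comparisons with SLIT2+APAP. In APAP against control, where 0 were called, DESeq2 called 1, and leaving out 1 library gave 0 to 1. In SLIT2 against control, where 5 were called, leaving out 1 library gave 5 to 6. In SLIT2+APAP against APAP, where 7 were called, 4 were called with no count filter and 0 with only the 4 libraries compared, and leaving out 1 library gave 0 to 5. In SLIT2+APAP against control, where 2 were called, 1 was called with library totals, 5 with DESeq2, 0 without both SLIT2 libraries and 4 with only the 4 libraries compared, and leaving out 1 library gave 0 to 3. Over all genes, DESeq2 called 1836, 9246, 3532 and 1455 genes in the 4 comparisons in this order, against 133, 9266, 2348 and 361 by edgeR. With only the 4 libraries compared edgeR called 0, 10571, 1 and 4246.

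Replicate numbers 1 and 2 occur in control, SLIT2 and SLIT2+APAP, and the APAP libraries share none of them. Deviations of same-numbered libraries from their group means correlated at 0.07, -0.07 and -0.01. With 2 libraries per group these values cannot decide whether the numbers pair the libraries, and the labels do not explain the numbers. With the replicate number as a block, 6 members were called in SLIT2 against control and 5 in SLIT2+APAP against control, against 5 and 2 without it, and 10515 and 3557 genes were called in all. In SLIT2 against control the block added Ugt1a2 and Ugt1a8 and left out Ugt1a9.

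Without the mitochondrially encoded genes in the library sizes, the mean sum of the locus was 579.9 CPM in control, 311 in SLIT2, 855 in APAP and 462 in SLIT2+APAP. Without Ugt1a8 it was 72.8 CPM in SLIT2 and 101 in SLIT2+APAP. Library totals moved the median log2 fold change of all genes by 0.12 to 0.3 and turned that of Ugt1a9 in APAP against control to 0.02. Leaving out 1 library changed the sign for genes that were not called. In APAP against control the log2 fold change then ran from -2.16 to 6.56 for Ugt1a2, -0.4 to 0.3 for Ugt1a9 and -0.61 to 0.65 for Ugt1a10. In SLIT2 against control it ran from -7.52 to 10.11 for Ugt1a2, -0.97 to 0.77 for Ugt1a5 and -0.71 to 0.97 for Ugt1a7c. In SLIT2+APAP against APAP it ran from -6.62 to 2.28 for Ugt1a2. In SLIT2+APAP against control it ran from -7.48 to 7.6 for Ugt1a2, -1.96 to 0.02 for Ugt1a5 and -5.4 to 0.66 for Ugt1a7c. The cause was not tested. Counts of 0 to 187 limit what can be said of Ugt1a2 and Ugt1a7c.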

Other observations

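The genes outside the locus whose log2 CPM followed that of the summed Ugt1a genes most closely were ranked among 8414 genes with a mean of at least 5 CPM, as a description with no test. Each library enters both genes of a pair with the same library size, and the libraries differ in depth and mitochondrial share. Over all 8 libraries they were Ppp2r5b, a phosphatase subunit (Pearson r = 0.984), Osbpl2, an oxysterol binding protein (0.983), Otub1, a deubiquitinase (0.983), C77080 (0.981) and Alg3, a mannosyltransferase of the endoplasmic reticulum (0.981). Over the 6 libraries without the SLIT2 group they were Ces1c, a carboxylesterase (Pearson r = 0.996), Tmem176b (0.992), Os9, a lectin of the endoplasmic reticulum (0.988), Cog1, a Golgi complex subunit (0.987), and Usp22, a deubiquitinase (0.986).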
